A study of Rattus norvegicus with 6 samples.

Results

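The nuclear-encoded genes of the mitochondrial respiratory chain and the ATP synthase were followed in whole testis of diabetic and non-diabetic rats. Rows of the gene table were taken by their symbol, which had to begin with Nduf, Uqcr, Atp5 or Cox4 to Cox8, or be Sdha, Sdhb, Sdhc, Sdhd or Cycs. This gave 99 of 35291 rows, of 96 symbols, since Cox6b1, Ndufv3 and Uqcrb each had 2 rows. By complex, 47 rows belonged to complex I, 4 to complex II, 9 to complex III, 22 to complex IV and 16 to complex V, and 1 was cytochrome c. Ndufa4 and Ndufa4l2 were placed with complex IV. The testis cytochrome c gene, Cyct, was not analysed here. Besides 86 rows of subunits, the symbols took in 9 assembly factors, 3 rows of like genes or pseudogenes and the ATP synthase associated gene Atp5s.

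The study asked which RNAs differ in the testis when rats are diabetic. Testis RNA of 3 diabetic and 3 control samples was sequenced, all from rats of the outbred Sprague-Dawley strain. Each sample is called a rat here, though the labels give only replicate numbers. Per the study's methods, the diabetic rats were fed a high-fat diet for 1 month, then received a single intraperitoneal dose of 35 mg/kg streptozotocin (STZ), a toxin of pancreatic beta cells, and were kept only if their blood glucose stayed high. The non-diabetic rats received citrate buffer, and testes were taken 8 weeks after the injection. Whether the control rats also ate the high-fat diet is not given in the sources used here, so effects of diet and of STZ cannot be told apart. The rats were adult males, and no age was given.

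Oxidative phosphorylation makes ATP in the inner mitochondrial membrane. Complexes I and II pass electrons from NADH and succinate to ubiquinone, complex III passes them on to cytochrome c, and complex IV (cytochrome c oxidase) passes them to oxygen. Complexes I, III and IV pump protons, and complex V (ATP synthase) uses the gradient to make ATP. Most subunits are encoded in the nucleus and a few in mitochondrial DNA. Germ cells exchange several of the ubiquitous subunits for testis isoforms: Cox6b2 for Cox6b1, Cox7b2 for Cox7b and Cox8c for Cox8a.

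All levels are FPKM, fragments scaled to transcript length and to the size of the library, so that genes can be compared with each other per length. Sums of FPKM over the whole table ranged from 453304 to 478211 per rat, and the read depth is not known. Markers of elongating spermatids were abundant, in keeping with the label of testis, with a summed level of 15718 ± 695 FPKM in diabetic and 15678 ± 1230 FPKM in non-diabetic rats (SD, n = 3 each). The summed levels of spermatogonia, spermatocyte, round spermatid, Sertoli, myoid and endothelial markers also overlapped between the groups. Singly, Uchl1 and Wt1 were higher and Kit and Des lower in diabetic rats without overlap. Of the 7 spermatogonia markers, 2 had an unadjusted limma p below 0.05 (28.6%, beside 7.46% of all genes). These were Uchl1 and Kit, at log2 fold changes of 0.34 and -0.30. The Leydig cell marker sum did not overlap, at 31.2 to 60.1 FPKM in diabetic against 87.3 to 121 FPKM in non-diabetic rats. All 7 of 7 fold changes were negative, and 5 genes did not overlap singly (71.4%, beside 8.42% of all genes lower without overlap). Nr5a1, at a log2 fold change of -0.016, and Hsd17b3 overlapped. The macrophage sum likewise did not overlap, at 5.27 to 7.61 against 9.88 to 11.6 FPKM. All 6 of 6 fold changes were negative. Of these genes 4 did not overlap singly (66.7%, beside the same 8.42%), while Cd163 and C1qb overlapped. No gene of these marker lists was at 0 in all rats. Bulk RNA cannot tell fewer cells of a type from less RNA per cell.

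As a whole the nuclear-encoded respiratory genes had close to the same levels in both groups. Their summed level was 5256 ± 166 FPKM in diabetic and 5312 ± 347 FPKM in non-diabetic testes (SD, n = 3 each), a ratio of 0.990 (exact two-sided permutation test, p = 0.9, where 3 against 3 cannot go below 0.1). They held 1.11 to 1.19% of all FPKM in every rat. In the fit, 93 of the 99 rows passed the filter of a mean of 0.5 FPKM, and the median log2 fold change (diabetic minus non-diabetic, on the log2(FPKM + 0.1) scale) of these rows was -0.017, beside -0.021 for all 20338 genes tested. Fold changes ran from -0.92 to 0.37, 38 positive and 55 negative (all genes, 9025 positive and 11313 negative). Of the 93 rows, 92 were smaller than 0.5 in size.

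None of the 93 rows passed an adjusted p of 0.05 in limma (Benjamini-Hochberg over all genes), a threshold passed by 0.0344% of all genes tested, which is 7 genes. The lowest adjusted p of the 93 was 0.133. At an unadjusted p below 0.05 there were 6 rows, 2 higher in diabetic rats (2.15% of the 93, beside 2.47% of all genes) and 4 lower (4.30%, beside 4.99%). No row reached a 2-fold difference together with an unadjusted p below 0.05, as 1.24% of all genes did. The groups did not overlap for 2 rows that were higher (2.15%, beside 4.56% of all genes) and 5 that were lower (5.38%, beside 8.42%). The shares at an unadjusted p below 0.05 were near those of all genes, and the shares without overlap were lower. Whether any share differed from that of all genes was not tested. The intervals were narrow for most: the 95% confidence interval stayed within 1.5-fold for 79 rows (84.9%, beside 58.7% of all genes) and within 2-fold for 88.

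**Figure D1:**
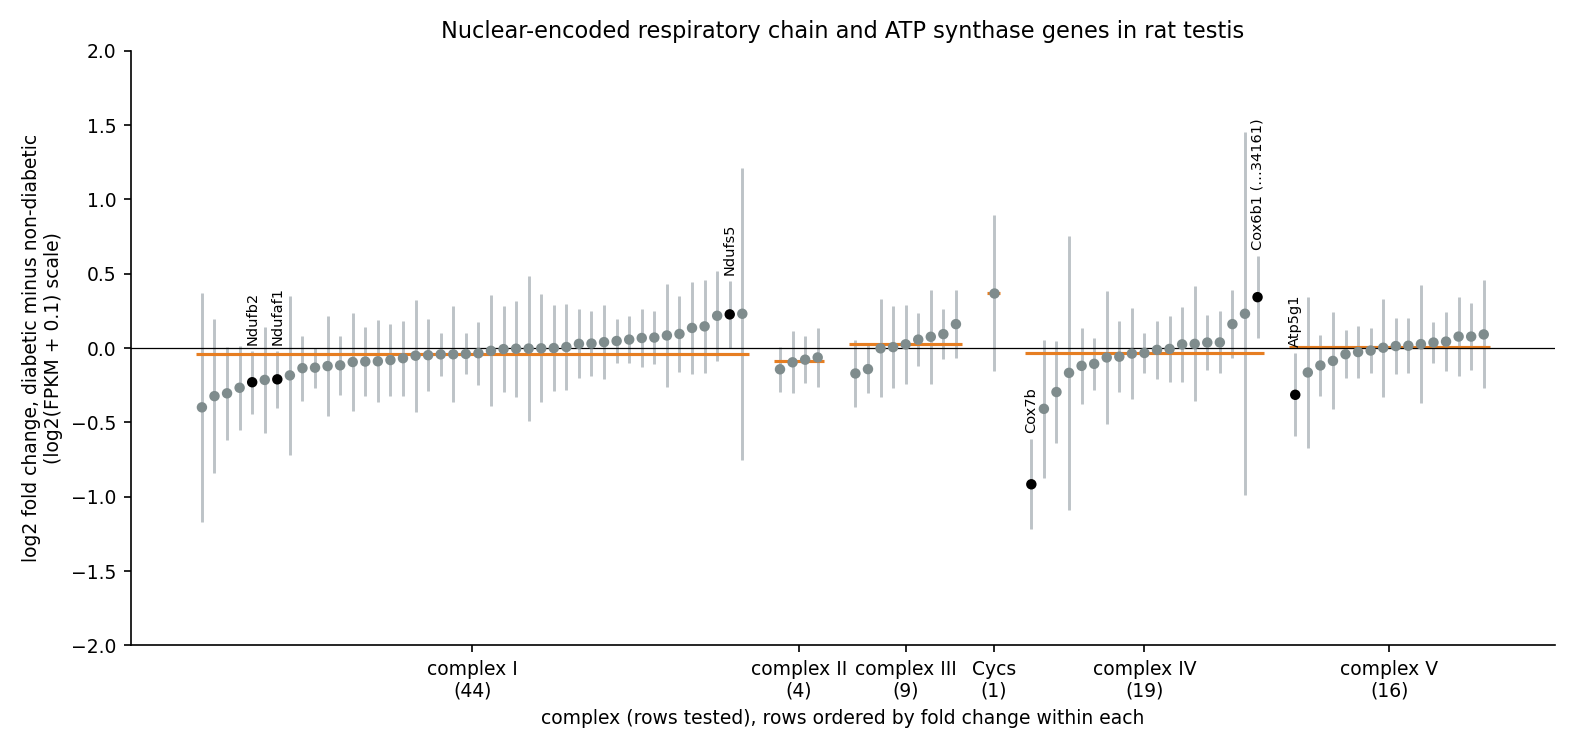
Log2 fold change (y axis, diabetic minus non-diabetic, log2(FPKM + 0.1) scale) of the 93 rows tested, grouped by complex (x axis, number of rows in brackets). Points are limma estimates, grey lines their 95% confidence intervals and orange lines the median of each complex. Black, named points have an unadjusted p below 0.05, and Cox7b at -0.92 lies apart from the rest.

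Complex I oxidises NADH and is the largest of the complexes. Its 47 rows summed to 1415 ± 21.5 FPKM in diabetic and 1448 ± 96.0 FPKM in non-diabetic rats, and the median log2 fold change of the 44 tested was -0.037, with 15 positive and 29 negative. Of the core that carries the redox centres, no subunit had an unadjusted p below 0.05. Ndufv1, the NADH-binding flavoprotein, was at 30.2, 26.0 and 24.4 FPKM in diabetic and 29.4, 31.8 and 24.7 FPKM in non-diabetic testes. The iron-sulphur subunit Ndufs1 was at 67.6, 68.3 and 73.1 against 68.8, 72.1 and 73.9 FPKM. The groups overlapped for both of these core subunits, and their log2 fold changes were -0.09 and -0.04, in that order, with 95% confidence intervals from -0.37 to 0.19 at the widest. The largest difference of the core was that of the iron-sulphur subunit Ndufs7, at 8.72 to 11.0 FPKM in diabetic and 10.2 to 12.5 FPKM in non-diabetic rats. These overlapped, at a log2 fold change of -0.27 with a confidence interval from -0.55 to 0.015 (limma adjusted p = 0.690). All 7 core subunits had intervals within 1.5-fold, and 6 of the 7 fold changes were negative.

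Levels spread widely within the complex I rows, from a mean of 0.0424 FPKM, for the like gene Ndufb4l1, to 169 FPKM. The highest was not a subunit but the assembly factor Ndufaf3, at 171 ± 8.64 FPKM in diabetic and 166 ± 7.96 FPKM in non-diabetic rats. The highest subunit was the accessory subunit Ndufa12, at a mean of 135 against 127 FPKM. Both overlapped between the groups.

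Complex I held 3 rows with an unadjusted p below 0.05 (6.82% of the 44 tested, beside 7.46% of all genes), all of small size. Ndufaf1, an early assembly factor, was at 6.53, 6.29 and 6.13 FPKM in diabetic and 7.35, 7.43 and 7.19 FPKM in non-diabetic rats. Every diabetic rat lay below every non-diabetic rat, and the log2 fold change was -0.21 ± 0.081 (SE; limma adjusted p = 0.649). Ndufb2, an accessory subunit of the membrane arm, was at 22.8, 20.7 and 19.9 against 22.3, 26.0 and 26.3 FPKM. Here diabetic rat 1 lay above non-diabetic rat 1, so the groups overlapped, at -0.23 ± 0.090 (limma adjusted p = 0.649). Ndufs5, an accessory subunit on the intermembrane-space side, went the other way, with 12.4, 11.9 and 13.5 against 9.71, 11.2 and 11.4 FPKM. The 3 diabetic rats were all above the 3 non-diabetic rats, with a log2 fold change of 0.23 ± 0.095 (limma adjusted p = 0.666). The accessory subunit Ndufb9 did not overlap either, at 47.3, 48.0 and 48.5 against 50.0, 54.7 and 53.0 FPKM (limma adjusted p = 0.672). The extremes of fold change in complex I were noisier than these. Ndufa3 had the lowest, -0.40, with a confidence interval from -1.17 to 0.37, because non-diabetic rat 2 was at 30.9 FPKM while the other 5 rats lay between 11.1 and 15.9 FPKM. Ndufa13 had the highest, 0.23, from a row at 0.323 to 1.01 FPKM.

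Complex II, succinate dehydrogenase, is also an enzyme of the tricarboxylic acid cycle and has no subunit encoded in mitochondrial DNA. All 4 of its genes had negative fold changes, and its summed level did not overlap between the groups. The sum was 102, 101 and 104 FPKM in diabetic and 114, 110.5 and 105 FPKM in non-diabetic testes, a ratio of 0.934, where the exact permutation test gave p = 0.1, the smallest it can give. The highest diabetic sum lay next to the lowest non-diabetic sum. Sdha, the flavoprotein with the succinate site, was at 30.7 to 31.8 FPKM in diabetic and 32.3 to 36.1 FPKM in non-diabetic rats. It was lower in every diabetic rat, with a log2 fold change of -0.14 ± 0.064 (limma adjusted p = 0.692). The iron-sulphur subunit Sdhb was at 30.3, 31.4 and 27.7 against 30.9, 31.4 and 32.0 FPKM, a log2 fold change of -0.08. The membrane anchors Sdhc and Sdhd had log2 fold changes of -0.06 and -0.10. Sdhb, Sdhc and Sdhd all overlapped between the groups, and no gene of complex II had an unadjusted p below 0.05.

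Complex III moves electrons from ubiquinol to cytochrome c. Its 9 rows summed to 748 ± 42.3 FPKM in diabetic and 720 ± 26.3 FPKM in non-diabetic rats (exact permutation p = 0.4), and all 9 confidence intervals lay within 1.5-fold. The highest mean level among the 99 rows was that of Uqcrfs1, the Rieske iron-sulphur protein of this complex. It was at 445, 377 and 435 FPKM in diabetic and 397, 388 and 390.2 FPKM in non-diabetic rats. Diabetic rat 2 lay below all non-diabetic rats and diabetic rats 1 and 3 above them, at a log2 fold change of 0.09 ± 0.072 (limma adjusted p = 0.851). The next in level was the hinge protein Uqcrh, at 73.0 ± 1.33 against 80.7 ± 6.33 FPKM, a log2 fold change of -0.14 (limma adjusted p = 0.730). The core protein Uqcrc1 was at 52.2 ± 0.719 against 51.8 ± 8.10 FPKM. The largest differences were those of the small subunit Uqcr11, at 0.16, and of the higher of the 2 Uqcrb rows, at -0.17, neither with an unadjusted p below 0.05.

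Cycs, the somatic cytochrome c that carries electrons from complex III to complex IV, was low in the testis. It was at 3.23, 3.05 and 4.40 FPKM in diabetic and 3.33, 2.01 and 2.91 FPKM in non-diabetic rats. Its log2 fold change of 0.37 was the most positive of the 93 rows, but the groups overlapped and the confidence interval ran from -0.16 to 0.90 (limma adjusted p = 0.801).

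Complex IV was the complex in which testis isoforms stood out. Cox6b2, Cox7b2 and Cox8c together made up 52.1 to 55.1% of the summed level of the 22 complex IV rows in every rat. Cox6b2 was at 351, 326 and 343 FPKM in diabetic and 368, 362 and 281 FPKM in non-diabetic rats. Cox7b2 was at 338, 339.9 and 332 against 331, 367 and 337 FPKM, and Cox8c at 388, 348 and 238 against 287, 390.4 and 328 FPKM. The groups overlapped for all 3, whose log2 fold changes were 0.02, -0.03 and -0.06, in that order. Cox7b2 was the most precise, with a confidence interval from -0.17 to 0.10, and Cox8c the least, from -0.51 to 0.39. In mean level these isoforms ranked 4, 3 and 5 among the 99 rows, after Uqcrfs1 and Atp5b. Each stood far above its ubiquitous partner: the ratio was 69.3 to 108 for Cox6b2 to the higher Cox6b1 row (31.5 to 52.2 to both rows summed), 55.8 to 129 for Cox7b2 to Cox7b and 33.8 to 57.4 for Cox8c to Cox8a, over the 6 rats.

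**Figure D2:**
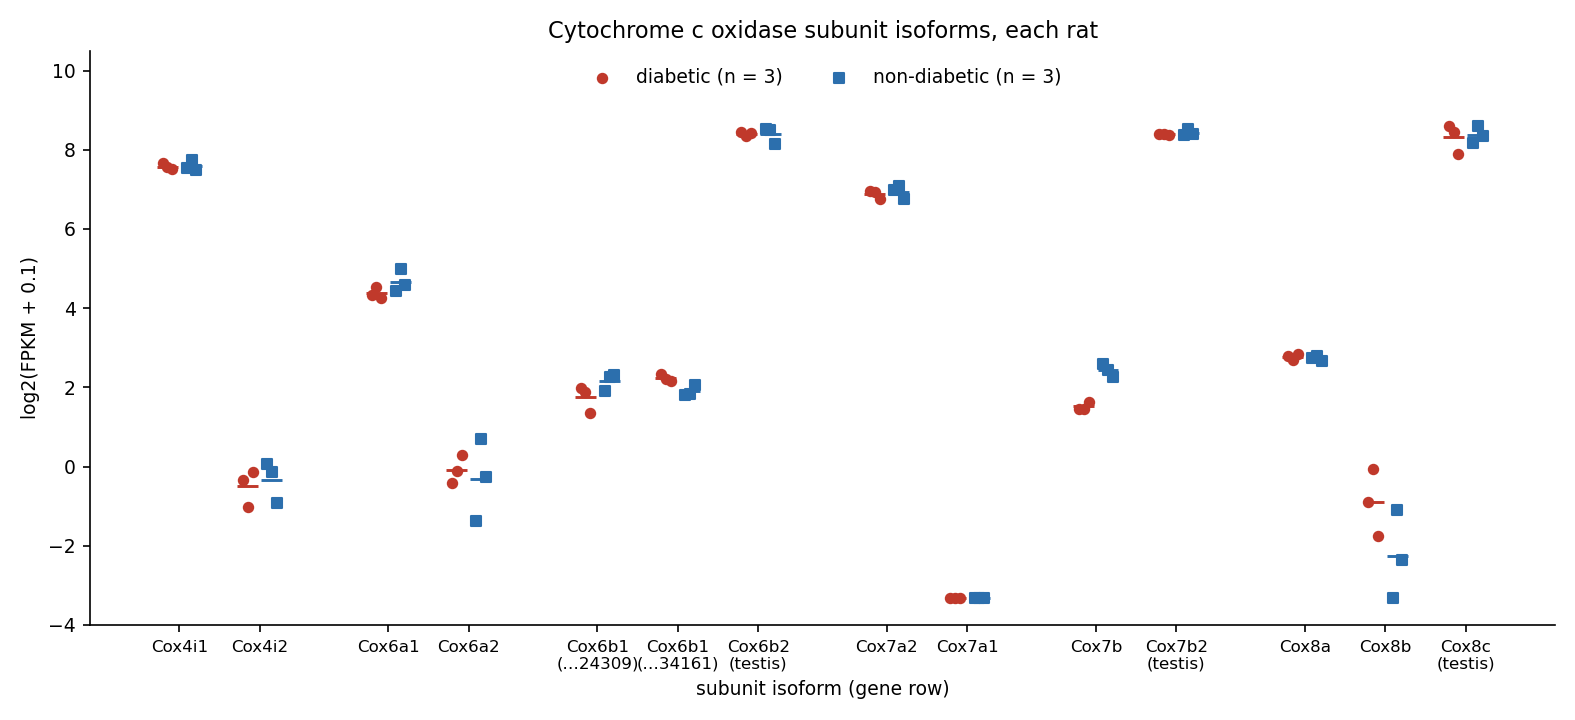
Levels of cytochrome c oxidase subunit isoforms in each rat, on the log2(FPKM + 0.1) scale (y axis), with the 2 Cox6b1 rows told apart by the end of their identifiers (x axis). Circles are diabetic and squares non-diabetic rats, and short lines are means of the logs. Cox6b2, Cox7b2 and Cox8c lie near the top and overlap between groups, while the Cox7b circles lie below its squares.

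The other isoform families kept to the ubiquitous gene in the testis. Cox4i1 was at 191 ± 10.4 against 193 ± 19.7 FPKM, and its lung isoform Cox4i2 at 0.633 ± 0.215 against 0.730 ± 0.273 FPKM. Cox6a1 was at 20.7 ± 2.01 against 25.6 ± 5.18 FPKM, and the muscle and heart isoform Cox6a2 at 0.862 ± 0.237 against 0.844 ± 0.622 FPKM. Cox7a2 was at 118 ± 9.62 against 124 ± 14.6 FPKM, while the row of the muscle isoform Cox7a1 was listed at 0 in all 6 rats. Cox8b, another muscle isoform, stayed below the filter at 0 to 0.866 FPKM. None of these isoforms that could be tested had an unadjusted p below 0.05.

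The upstream sequences of both genes of a pair are shown for Cox7b and Cox7b2, since Cox7b had the strongest difference of all rows, and for Cox8a and Cox8c as a second pair of a ubiquitous and a testis gene. They are the 250 bases before the RefSeq start of each gene in the GRCr8 assembly, written in the direction of the gene. The windows are chrX:75148786-75149035 on the plus strand for Cox7b, chr14:37046831-37047080 on the plus strand for Cox7b2, chr1:213833624-213833873 on the minus strand for Cox8a and chr6:127793129-127793378 on the plus strand for Cox8c. Capitals mark matches, on either strand, to any of 4 motifs: CGCANGCG, the core of the NRF-1 site, CCGGAAG, the site of NRF-2 (GABP), TGACGTCA, the cyclic AMP response element (CRE), and CCAAT, the CCAAT box. No match overlapped another in these windows.
Cox7b: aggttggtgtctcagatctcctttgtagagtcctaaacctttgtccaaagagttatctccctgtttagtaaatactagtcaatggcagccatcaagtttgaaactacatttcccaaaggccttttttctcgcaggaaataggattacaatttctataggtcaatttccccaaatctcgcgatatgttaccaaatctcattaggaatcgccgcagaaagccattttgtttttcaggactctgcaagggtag
Cox7b2: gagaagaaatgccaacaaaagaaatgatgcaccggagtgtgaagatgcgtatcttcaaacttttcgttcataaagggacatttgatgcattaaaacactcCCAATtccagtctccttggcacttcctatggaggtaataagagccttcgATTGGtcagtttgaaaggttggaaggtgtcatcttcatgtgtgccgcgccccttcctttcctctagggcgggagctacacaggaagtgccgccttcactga
Cox8a: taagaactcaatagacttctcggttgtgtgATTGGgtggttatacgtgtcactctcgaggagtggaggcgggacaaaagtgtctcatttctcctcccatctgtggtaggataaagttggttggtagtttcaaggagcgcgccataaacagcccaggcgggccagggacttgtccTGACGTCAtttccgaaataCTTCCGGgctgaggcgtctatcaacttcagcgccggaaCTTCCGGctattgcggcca
Cox8c: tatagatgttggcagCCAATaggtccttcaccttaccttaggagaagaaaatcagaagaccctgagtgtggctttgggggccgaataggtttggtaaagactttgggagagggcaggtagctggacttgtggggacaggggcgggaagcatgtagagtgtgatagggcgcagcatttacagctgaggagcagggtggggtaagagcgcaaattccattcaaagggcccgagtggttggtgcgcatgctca

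NRF-1 and NRF-2 are known as activators of nuclear respiratory genes. Promoters of the same 250-base window were found for 83 of 95 protein-coding symbols. NRF-1 letters occurred in 24 of the 83 (28.9%, beside 8.71% of 21851 protein-coding promoters), and with a G before and a C after this core, a form counted first, in 13 (15.7%, beside 5.07%). NRF-2 letters occurred in 20 (24.1%, beside 9.01%). At least 1 of both was present in 38 (45.8%, beside 16.2%). CRE letters were in 3 (3.61%, beside 1.89%) and a CCAAT box in 27 (32.5%, beside 7645 of the 21851). Among the windows shown, Cox8a held 2 NRF-2 matches, which began 57 and 19 bases before the start, a CRE match at 76 bases and a CCAAT box. Cox7b2 held 2 CCAAT boxes and Cox8c held 1, and no letters of the 4 motifs were found in the Cox7b window. Such matches describe letters only and are not evidence of binding.

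Cox7b, the ubiquitous form of a small subunit of cytochrome c oxidase, had the lowest p of the 93 rows and ranked 26 among all 20338 genes. Levels were 2.66, 2.63 and 3.01 FPKM in diabetic and 5.93, 5.36 and 4.69 FPKM in non-diabetic testes. All 3 diabetic rats lay below all 3 non-diabetic rats with a wide gap, and the mean was 48.0% lower. The log2 fold change was -0.92 ± 0.13 (SE), with a confidence interval from -1.22 to -0.61 (limma adjusted p = 0.133). Its highest value with any rat left out was -0.84, and its adjusted p was 0.0335 when only protein-coding genes were tested. Among the markers, the sums of the Leydig and macrophage lists were also lower without overlap, as given above. Their part in the Cox7b difference was not tested.

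**Figure D3:**
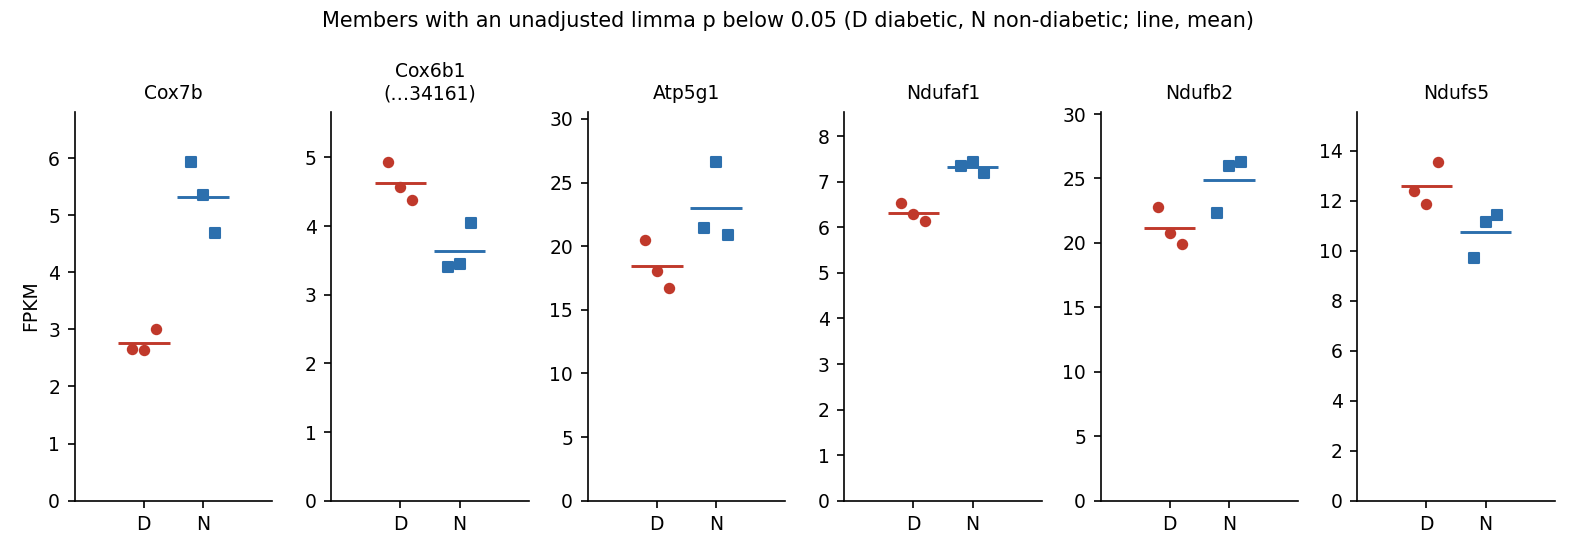
FPKM (y axis, from 0, own scale in each panel) of the 6 rows with an unadjusted limma p below 0.05, in each diabetic (D, circles) and non-diabetic (N, squares) rat, with lines at the group means. Only Ndufb2 overlaps between the groups, and Cox7b shows the widest gap, 2.63 to 3.01 against 4.69 to 5.93 FPKM.

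The share of the testis isoform was also taken for each pair. Cox7b2 made up 99.2% ± 0.0728 of the summed Cox7b2 and Cox7b level in diabetic and 98.5% ± 0.206 in non-diabetic rats (SD, n = 3 each). The shares did not overlap, at an exact permutation p of 0.1, or 0.3 adjusted over the 3 pairs, and the Cox7b2 level itself overlapped. The share of Cox6b2 was 98.7% ± 0.0709 against 98.9% ± 0.284 (exact permutation p = 0.4). The share of Cox8c was 97.9% ± 0.646 against 98.1% ± 0.276 (exact permutation p = 0.8). Cox8a was at 6.76, 6.37 and 7.05 against 6.59, 6.80 and 6.26 FPKM, with overlap.

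The 2 Cox6b1 rows had fold changes of opposite sign. The row ENSRNOG00000034161 was at 4.93, 4.56 and 4.38 FPKM in diabetic and 3.40, 3.45 and 4.05 FPKM in non-diabetic rats, higher without overlap, at a log2 fold change of 0.34 ± 0.12 (limma adjusted p = 0.590). The row ENSRNOG00000024309 was at 2.48 to 3.86 FPKM in diabetic and 3.64 to 4.85 FPKM in non-diabetic rats, at -0.41 ± 0.20 (limma adjusted p = 0.726). Summed, the rows gave a log2 fold change of -0.02 (limma adjusted p = 0.992). How reads were divided between rows of one symbol is not given in the sources used here, so each row is uncertain.

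Among the remaining subunits of complex IV, Cox5a was at 126, 123 and 112 FPKM in diabetic and 104, 124 and 97.2 FPKM in non-diabetic rats, with overlap and a log2 fold change of 0.16 (limma adjusted p = 0.801). Ndufa4, long counted with complex I, was at 8.51 ± 0.268 against 9.30 ± 1.25 FPKM. Its relative Ndufa4l2 was at 4.12 ± 0.172 against 4.10 ± 0.831 FPKM. Cox7a2l, a supercomplex assembly factor, was at 26.1 ± 1.30 against 25.5 ± 1.90 FPKM. All 22 rows summed to 1864 ± 103 against 1900.1 ± 159 FPKM (exact permutation p = 0.8).

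The ATP synthase rows summed to 1122 ± 29.7 FPKM in diabetic and 1131 ± 77.6 FPKM in non-diabetic rats, and their median log2 fold change was 0.0078. The catalytic head dominated. Atp5b, the catalytic beta subunit, was at 375, 362 and 350.2 FPKM in diabetic and 358, 369 and 333 FPKM in non-diabetic testes. Atp5a1, the alpha subunit, was at 222, 214 and 202 against 212, 229 and 204 FPKM. The groups overlapped for both, with log2 fold changes of 0.04 and -0.02 and confidence intervals from -0.10 to 0.18 and from -0.17 to 0.14. The epsilon subunit Atp5e had the most positive value of the complex, 0.09, with an interval from -0.27 to 0.46.

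Subunit c, which forms the membrane ring that turns with proton flow, is made from Atp5g1, Atp5g2 and Atp5g3. Atp5g1 was at 20.5, 18.0 and 16.7 FPKM in diabetic and 21.4, 26.6 and 20.9 FPKM in non-diabetic rats. It was lower in all 3 diabetic rats, at a log2 fold change of -0.31 ± 0.12 (limma adjusted p = 0.635). Atp5g2 was at 13.7, 9.60 and 10.8 against 12.8, 16.6 and 9.48 FPKM, and Atp5g3 at 32.5, 30.3 and 30.4 against 27.2, 39.3 and 27.9 FPKM. The groups overlapped for both, with log2 fold changes of -0.16 and 0.0022, and whether the Atp5g genes differed from each other was not tested. The inhibitor of the enzyme, listed under its older symbol Atpif1 and so outside the rule, was at 80.0, 64.8 and 81.5 against 71.0, 74.3 and 75.4 FPKM, with overlap.

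The mitochondrial DNA encodes the 13 partner subunits of complexes I, III, IV and V. They summed to 6699, 7470 and 8524 FPKM in diabetic and 6783, 7921 and 8689 FPKM in non-diabetic rats, more than all 99 nuclear rows together. The groups overlapped (exact permutation p = 0.7), and none of the 13 had an unadjusted p below 0.05. Of the fold changes 12 of 13 were negative, beside 11313 of 20338 for all genes. Their median was -0.09, beside -0.021. These RNAs varied more between rats than the nuclear ones, holding 1.44 to 1.92% of all FPKM. The labels name poly(A) selection in the protocol but also list circRNA and lncRNA for these libraries, so how far RNAs without a poly(A) tail were kept is not settled by the sources used here.

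The other genes of the pathway were counted in lists. Of 35 further assembly factors tested, only Uqcc3, of complex III, had an unadjusted p below 0.05 (2.86%, beside 7.46% of all genes). It was at 6.77 ± 0.558 against 5.12 ± 0.293 FPKM, a log2 fold change of 0.40. None of 16 genes of mitochondrial biogenesis, such as Ppargc1a, Nrf1 and Tfam, had an unadjusted p below 0.05. Of 11 tricarboxylic acid cycle genes, 1 was higher and 2 were lower at that p (27.3%, beside 7.46% of all genes in both directions). These were the fumarase gene Fh, at 0.30, the succinyl-CoA ligase subunit Suclg2, at -0.23, and the isocitrate dehydrogenase subunit Idh3g, at -0.24. Of 17 carriers, porins and other respiratory genes, 4 were lower and none higher (23.5%, beside 4.99% of all genes lower and 2.47% higher). They were the electron transfer flavoprotein Etfa (-0.42), its ubiquinone oxidoreductase Etfdh (-0.36), the outer membrane porin Vdac1 (-0.32) and the phosphate carrier Slc25a3 (-0.24). No gene of these 5 lists had an adjusted p below 0.05 in limma.

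**Figure D4:**
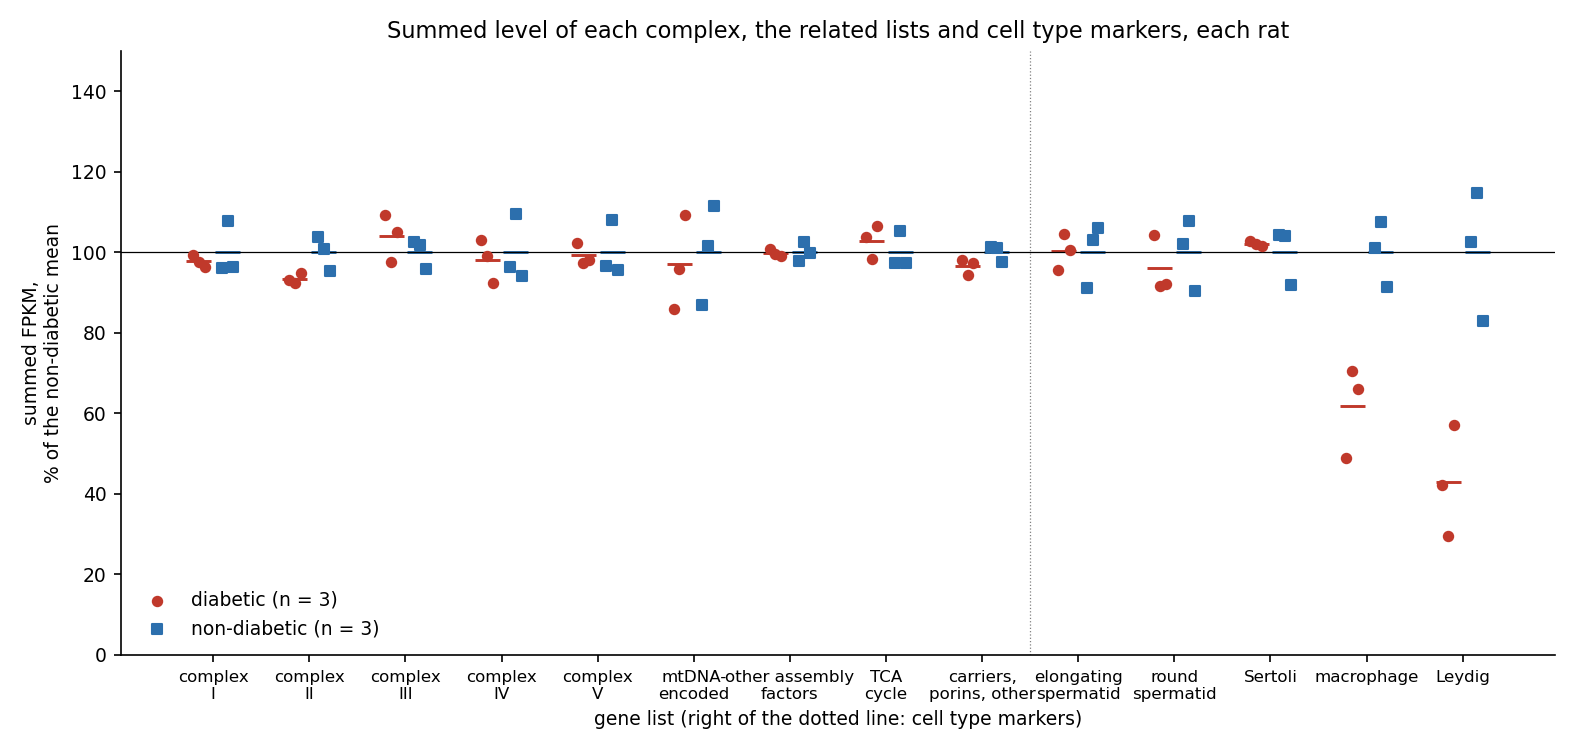
Summed FPKM of each complex, of related gene lists and of cell type markers in each rat, as percent of the non-diabetic mean (y axis, from 0; gene lists on the x axis). Circles are diabetic and squares non-diabetic rats, and short lines are means. Complexes I, III, IV and V and the mitochondrial DNA-encoded genes overlap between the groups. Complex II (92.3 to 94.7% in diabetic rats) and, more widely, the macrophage and Leydig marker sums lie lower in all 3 diabetic rats.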

How the data were processed

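RNA of 6 testis samples was sequenced in paired ends. The labels' protocol names poly(A) selection, while the titles also list circRNA and lncRNA and the study's methods name no selection. Per those methods, the authors compared reads with rRNA sequences in BWA, aligned with STAR, assembled with StringTie and screened transcripts with DESeq2. The deposited gene table holds FPKM made by the authors, 1 column per sample. The genome build and versions are not given in the sources used here. Counts and depth are unknown, so no interval for counting error was given.

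Groups came from the labels. Values were tested as log2(FPKM + 0.1) in limma 3.58.1 (R 4.3.3; eBayes with trend, two-sided) where the mean over all rats reached 0.5 FPKM, adjusted by Benjamini-Hochberg over all 20338. The script was tested on simulated data. Single values per rat were compared by exact permutation. Nothing says more of the replicates than that they are separate samples, so p-values measure only the spread between them. The members, gene lists and rule for named genes (isoforms and partners, an unadjusted p below 0.05, the 2 highest levels and the extreme fold changes of each complex, and catalytic subunits) were chosen with earlier results of these data known. Complexes were assigned by hand from general knowledge. Genes outside the rule are named from the pathway lists where their unadjusted p is below 0.05, and Atp5g2, Atp5g3, Ndufb9, Ndufs7 and the rows under other symbols were added after their values were seen. Promoters were read from RefSeq (GRCr8) by symbol or synonym. Alternatives were the pseudocount, filter, scaling, eBayes settings, a replicate block, protein-coding genes only, summed rows and each rat left out. A gene that the rule names is not reported here.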

Additional observations from a re-analysis of the deposited data

How the results depend on the processing

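Among all genes, 7 had an adjusted p below 0.05. This became 3 with no filter, 12 without the eBayes trend, 4 with the replicate block, 31 with protein-coding genes only, 15 with rows of the same symbol summed, and 0 to 11 with each rat left out. The 0 came without non-diabetic replicate 3, where limma gave 1504 genes an unadjusted p below 0.05. The count was 4 without diabetic replicate 1 and 11 without non-diabetic replicate 1. Among the respiratory genes it stayed 0 of the rows tested in every alternative except protein-coding genes only, where it was 1 (Cox7b), and with fewer genes tested the fit and its adjustment both change. The Cox7b adjusted p was 0.0335 to 0.442 over the alternatives and 0.380 with the replicate block. The unadjusted p stayed below 0.05 for Cox7b in all 17 alternatives, and was lost in 4 for Atp5g1, 7 for Ndufaf1, 7 for Ndufb2, 5 for Ndufs5 and 3 of 16 for the Cox6b1 row ENSRNOG00000034161. The difference in the Cox6b2 share reversed to 0.102 percentage points with summed rows, and that of Cox8c ran from -0.391 to 0.188 with each rat left out, reversing without diabetic replicate 3. The cause was not tested. The median log2 fold change of the members lay between -0.05 and 0.03.

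Deviations of same-numbered rats correlated at 0.106, 0.0153 and 0.0979, so the numbers were not taken to pair the rats. Adding rows whose current RefSeq symbol meets the rule, an alternative chosen after seeing the data, gave 101 rows tested, 0 with an adjusted p below 0.05 and a median of -0.012. Depth is unknown, and with 3 rats per group small differences of low genes could not be detected.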

Other observations

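Several respiratory genes carried their main signal in a row under another symbol. The row named Ndufa13, a complex I subunit, was at 0.323 to 1.01 FPKM, while the row LOC100911483, which RefSeq now names Ndufa13, was at 62.7, 71.4 and 75.4 FPKM in diabetic and 54.6, 67.2 and 73.1 FPKM in non-diabetic rats. The row named Ndufs6 was at 0 in 4 of 6 rats and at most 0.606 FPKM, while LOC679739, now Ndufs6, was at 12.9 to 17.8 FPKM. The groups overlapped for both LOC rows. Usmg5, now Atp5mk and a small ATP synthase subunit, had a mean of 2.33 FPKM, below the 25.3 FPKM of LOC103693430, which RefSeq lists as its pseudogene. Of 16 such rows, 8 were tested, and 1 of these 8 had an unadjusted p below 0.05, beside 7.46% of all genes. It was LOC100361934 (now Ndufb4l4), at 25.6, 26.7 and 28.6 against 28.2, 33.7 and 32.9 FPKM, with overlap (limma adjusted p = 0.649).

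Atp5f1, the stalk subunit b, and LOC100911417, annotated as a subunit b-like gene, had values within 2.67% of each other in every rat. LOC679739 and LOC100912599, annotated as an NADH dehydrogenase gene, lay within 1.02%. RefSeq lists 108 pseudogenes whose symbols meet the rule, beside 120 protein-coding genes. How the authors divided reads between such copies is not given in the sources used here, so these levels are uncertain.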
